A study of Canis lupus familiaris with 20 samples.

Results

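Muscle RNA of 6 dystrophic dogs was compared with that of 4 normal dogs across all genes on a canine expression array, so the comparison takes in all 10 dogs of the series. The dystrophic dogs were chosen by their label of disease state, 4 of them DMD affected and 2 DMD escaper, and were joined whatever their clinical course. All 10 dogs were 2 years old, the tissue is given as muscle without naming which muscle, and breed, sex and the DMD mutation are not in the labels. No dog carries a treatment in the labels. Each dog's RNA was hybridised on 2 arrays with opposite dyes, 20 arrays in all, against a common reference made from the RNA of 1 normal individual. Values are log2 ratios of dog over reference, averaged over the 2 arrays, so that 0 is the level of the reference and the dog is the replicate.

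Duchenne muscular dystrophy (DMD) arises from loss of dystrophin, the protein that ties the actin skeleton of the muscle fibre to the membrane complex and the surrounding matrix. Fibres without it break down and regenerate again and again, and macrophages, fibroblasts and scar matrix come to occupy the tissue. Affected dogs develop a severe disease close to the human one, whereas in escapers, which also lack dystrophin, the disease runs mildly. In whole muscle, fewer cells of a type and less RNA per cell cannot be told apart.

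The arrays measured muscle in every group. Of the 7 tested markers of skeletal muscle fibres, 6 were well above background on all 20 arrays. No tested probe served for red blood cells, and only 3 of 15 T and NK cell markers on the array were bright enough to test. Of 42034 probes on the array, 16008 were bright enough and were tested, and they stand for 6215 named genes. Between 30.5% and 60.2% of probes were well above background per array, the highest on the Cy5 array of affected 4, and r between the paired dye-swap arrays ran from 0.575 (affected 4) to 0.900 (escaper 2).

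Dogs did not stand equally close to their group. Normal dogs correlated with one another with r from 0.756 to 0.813 over the tested probes, where probes are not independent and all dogs share the reference. Affected 1 reached at most r = 0.04 with a normal dog and stayed below 0 with each dystrophic dog. Escaper 2 had r from −0.24 to −0.08 with the normal dogs. Probes varied more among dystrophic dogs, with a median SD of 0.547 against 0.297 among normal dogs, and 81.9% of tested probes had the larger SD in the dystrophic group. Results that turn on affected 1 and escaper 2 are given with and without them. Slides are not in the labels and were inferred from the array barcode in the name of each scan, with numbers given here. By these barcodes normal dogs lay on slides 1 and 2, affected dogs on slides 3 and 4 and escapers on slide 5. No slide so inferred holds more than 1 group, and slide and group cannot be told apart.

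A probe is called where limma's adjusted p, Benjamini-Hochberg over all tested probes, lay under 0.05. Between dystrophic and normal dogs 237 of 16008 probes were called (1.48%), 131 higher (0.818%) and 106 lower (0.662%) in dystrophic muscle. By gene, with the brightest probe standing for each, 87 of 6215 were called (1.4%), 53 of which rose (0.853%) and 34 fell (0.547%). An unadjusted p under 0.05 was reached by 24.7% of probes, and an adjusted p under 0.1 by 8.26% of probes and 7.84% of genes. Whether or not they passed, 48.9% of probes and 51.8% of genes had the higher mean in dystrophic dogs. On 233 of the 237 called probes the 6 dystrophic dogs did not overlap with the 4 normal ones, while among all tested probes 5.48% had every dystrophic dog above and 7.35% every dystrophic dog below.

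How many probes passed depended on the dogs. The count was 30 without normal 1, 16 without normal 2, 23 without normal 3 and 13 without normal 4. It was 554 without affected 1, 139 without affected 2, 172 without affected 3, 33 without affected 4, 301 without escaper 1 and 640 without escaper 2. Without affected 1 and escaper 2 together, a choice made after seeing the data, 1676 probes passed, among them all 237. Background correction by normexp and loess normalisation of the scanner intensities left 17 calls, 7 higher and 10 lower, of which 16 were among the 237. Every one of the 237 probes kept its sign in each of these fits. The plot of calls by setting gives the counts.

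**Figure D1:**
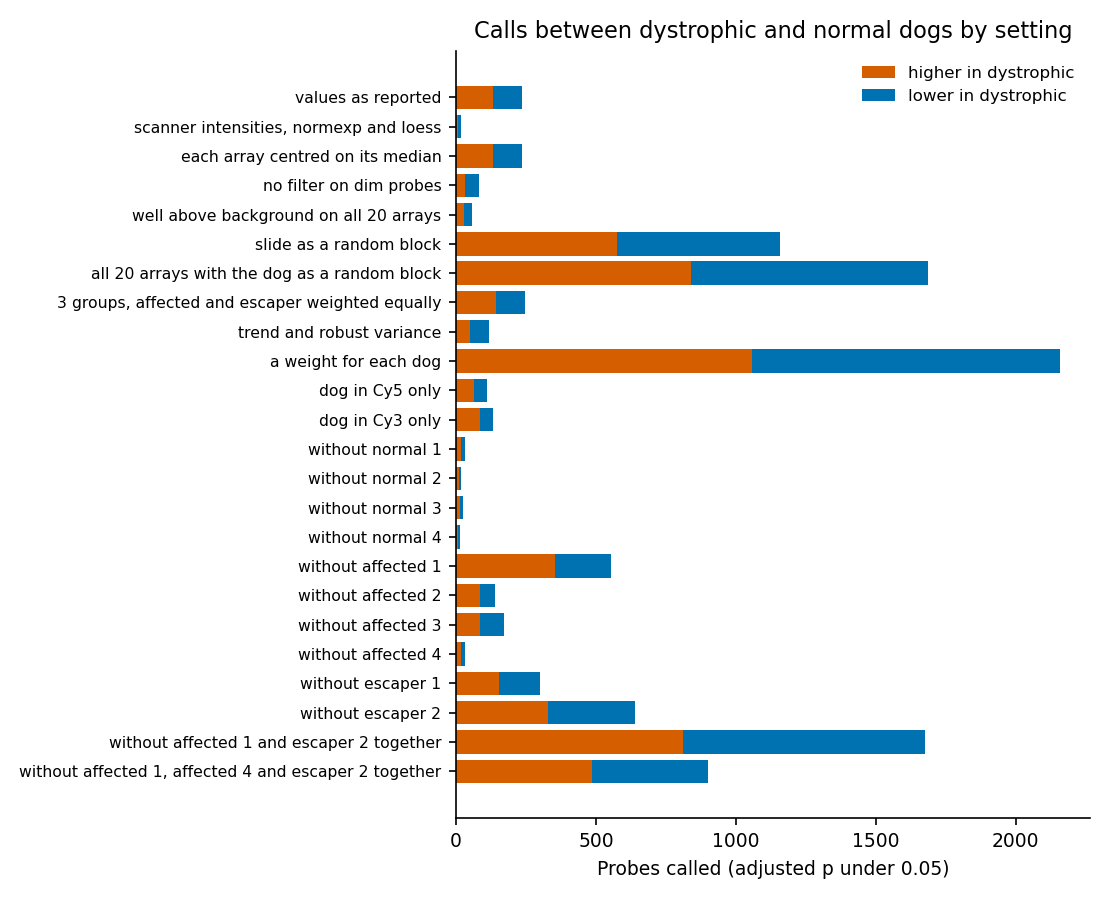
Number of probes called between dystrophic and normal dogs (horizontal axis) under each setting, in orange for probes higher and in blue for probes lower in dystrophic dogs. The reported setting gave 237 calls, leaving out any normal dog gave 13 to 30, and leaving out affected 1 and escaper 2 together gave 1676.

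By their group means, called probes lay far from the reference in normal dogs and close to it in dystrophic dogs. The median distance of the group mean from the reference was 1.70 on the log2 scale in normal dogs and 0.388 in dystrophic dogs over the 237 called probes. Dystrophic dogs were the nearer group on 221 of the 237 (93.2%), against 71.8% of all tested probes. Although the reference is labelled as normal, the mean of the dogs of its own label was thus the farther one. Group means do not show how far single dogs lay from the reference. Over all tested probes the SD of the log2 ratios was 0.891 to 1.004 in normal dogs. It was 1.218 in escaper 2, 0.935 in affected 1 and 0.575 to 0.759 in the remaining dystrophic dogs. The scatter of group means shows the called probes lining up along the level of the reference on the dystrophic axis.

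**Figure D2:**
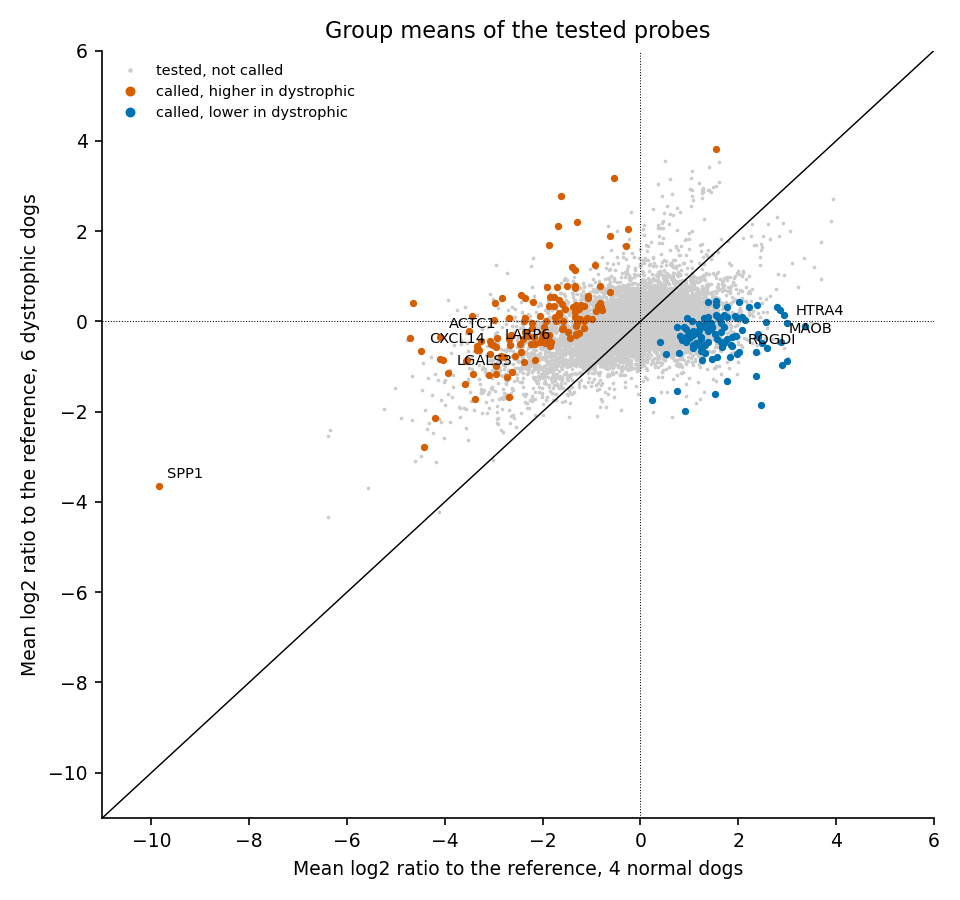
Mean log2 ratio to the reference of each tested probe in the 4 normal dogs (horizontal) and the 6 dystrophic dogs (vertical), with called probes in orange (higher) or blue (lower) and the diagonal marking equal means. Of the 237 called probes, 221 lie nearer to 0 in dystrophic than in normal dogs, and SPP1, with the largest difference, lies at −9.84 and −3.65.

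The array reads each transcript through a probe of 60 bases, and the probe decides which transcript a value belongs to. Sequences are shown, as the array files give them, for ROGDI, which had the smallest p, for both probes of LARP6, which both passed, for SPP1, which had the largest difference, and for 2 called probes that carry no gene symbol. The probes lie at chr6:39666304-39666363 for ROGDI, chr30:37520585-37520644 and chr30:37521009-37521068 for LARP6, chr32:14322376-14322435 for SPP1 and chr5:36234161-36234220 for the unnamed probe A_11_P0000016302. The array files give no position for the unnamed probe A_11_P0000025577. Coordinates are those of the array files, whose genome build is not given in the sources used here, and exon or UTR positions were not assigned.
ROGDI: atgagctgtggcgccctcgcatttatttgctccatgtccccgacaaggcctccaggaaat
LARP6, brighter probe: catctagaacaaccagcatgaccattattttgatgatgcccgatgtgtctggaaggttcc
LARP6, other probe: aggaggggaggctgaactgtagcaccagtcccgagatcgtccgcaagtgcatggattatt
SPP1: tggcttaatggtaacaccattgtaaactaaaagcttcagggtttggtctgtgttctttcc
A_11_P0000016302: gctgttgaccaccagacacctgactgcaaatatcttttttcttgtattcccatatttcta
A_11_P0000025577: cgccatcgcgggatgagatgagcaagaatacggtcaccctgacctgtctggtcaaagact

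Probes called in either direction had a median GC content of 43.3%, against 45.0% for all tested probes. On chromosome X lay 3 of 129 mapped probes that rose and 2 of 102 that fell, against 3.26% of all mapped tested probes.

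Described first are 12 genes in each direction, picked by the smallest p among called genes without overlap. That their groups do not overlap was therefore fixed by the choice and is no further result. ROGDI fell most clearly. It encodes a leucine zipper protein whose loss causes a human disorder of epilepsy and tooth enamel. The log2 ratios of normal 1 to normal 4 were 1.90, 2.06, 1.54 and 2.61, whereas the dystrophic dogs ran from −0.95 through a median of −0.71 to −0.39. Normal dogs thus held more than the reference and dystrophic dogs less, with a gap between the groups. The difference was −2.71 with a 95% interval from −3.20 to −2.21, a 6.53-fold lower level (limma, adjusted p = 0.00138). The 6 dystrophic dogs agreed closely, with an SD of 0.19, and the call held in all 23 alternatives, with differences from −2.87 to −2.30.

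Among ligands and matrix factors, SPP1 rose most. SPP1 encodes osteopontin, a secreted phosphoprotein that acts as a cytokine and matrix ligand in regenerating and inflamed muscle. Normal 1 to normal 4 read −9.89, −9.96, −9.13 and −10.39, and the dystrophic dogs −5.79 at the lowest (affected 1), −4.07 at the median and −1.08 at the highest (affected 4). All 10 dogs lay below the reference, and all dystrophic dogs lay above all normal dogs. The difference was 6.19 with an interval from 4.13 to 8.26 (limma, adjusted p = 0.021). In the reference channel the SPP1 spot was saturated on 18 of 20 arrays, and only 4 of 8 normal arrays had it well above background, so both ends of the scale are loosely measured. SPP1 lost its call without any 1 of the 4 normal dogs (adjusted p up to 0.0865) and with normexp and loess, where the difference was 4.02 (limma, adjusted p = 0.109).

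EDN3, which encodes the vasoactive peptide endothelin 3, read −2.47, −2.75, −3.23 and −2.31 in the normal dogs and from −0.56 through 0.25 to 0.57 in the dystrophic dogs. On 0 of 8 normal and 10 of 12 dystrophic arrays it stood well above background, so normal dogs give only a bound. For such probes the bright group's mean after normexp and loess is set against the background limit of the dim group. By that bound EDN3 was at least 1.39-fold higher in dystrophic muscle. The adjusted p beside any such bound is that of the ratios to the reference and does not test the bound. For EDN3 it was 0.00608 (limma). GRAMD3 and RNF128 were bounded the same way. GRAMD3 was at least 1.57-fold higher (adjusted p = 0.0235), and its membrane-binding protein family links cell membranes to lipid handling. RNF128, an E3 ubiquitin ligase known from T cells, was at least 1.60-fold lower (adjusted p = 0.00138). EDN3 and GRAMD3 were bright enough to test only through the dystrophic dogs, and RNF128 only through the normal dogs. With normexp and loess none of these genes was called (limma, adjusted p = 0.132, 0.313 and 0.110).

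LARP6 rose on both of its probes. It encodes an RNA-binding protein that recognises the stem-loop of collagen messenger RNAs and promotes their translation. On the brighter probe the normal dogs read −2.82, −2.81, −3.39 and −2.75 and the dystrophic dogs ran from −1.48 (escaper 1) through −0.52 to 0.07 (escaper 2), without overlap. The difference was 2.37 (SE 0.286) on that probe and 2.01 on the other, both with a limma adjusted p of 0.00946. No alternative ended the call, and differences ran from 1.78 to 2.55.

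LGALS3 rose as well. It encodes galectin-3, a carbohydrate-binding protein abundant in macrophages, and is on the list of macrophage markers. Normal dogs read −3.79, −4.10, −3.57 and −4.25, and dystrophic dogs ran from −2.45 (escaper 1) through −1.25 to 0.28 (escaper 2). The groups did not overlap and differed by 2.79, with an SE of 0.447 (limma, adjusted p = 0.0247). The call ended without any 1 of the normal dogs or affected 4, with an adjusted p of at most 0.0985, and with normexp and loess (adjusted p = 0.0537).

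Several other genes that rose encode proteins of the cell skeleton and its contacts. TUBA1B, an alpha tubulin, rose by 2.35 from −2.65 ± 0.34 (SD, n = 4) in normal to −0.30 ± 0.73 (n = 6) in dystrophic dogs, with a limma adjusted p of 0.0227. The reference spot of TUBA1B was saturated on 18 of 20 arrays. JUP, which encodes plakoglobin of desmosomes and adherens junctions, rose by 1.58 from −1.22 ± 0.56 to 0.36 ± 0.21 (limma, adjusted p = 0.0247), and its other probe, 0.58 higher, did not pass (adjusted p = 0.217). ANXA4, a calcium-dependent membrane-binding annexin, rose by 1.36 from −1.82 ± 0.36 to −0.46 ± 0.26 (limma, adjusted p = 0.0247). In all 3 genes every dystrophic dog lay above every normal dog, as their choice required. The call of TUBA1B ended without any 1 of the normal dogs or affected 4, that of JUP without normal 1, normal 3, normal 4 or affected 4, and that of ANXA4 without normal 2, normal 3, normal 4 or affected 4.

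DYNLRB2, TMEM218 and SPA17 rose too, and each encodes a protein known from cilia or the sperm tail. DYNLRB2, a dynein light chain, read −1.86, −2.27, −1.62 and −2.47 in normal dogs and −0.69 to 0.68 in dystrophic dogs, a difference of 2.17 (limma, adjusted p = 0.0113). TMEM218, a membrane protein of the ciliary base, differed by 2.20, from −1.86 ± 0.19 (n = 4) to 0.34 ± 0.55 (n = 6), with the same adjusted p. SPA17 differed by 2.07, from −1.33 ± 0.18 to 0.74 ± 0.59 (limma, adjusted p = 0.0209). On all 3 the dystrophic means lay above the reference and the normal means below it. The groups did not overlap, as the choice of genes required. Of 8 normal arrays, 5 had DYNLRB2, 6 TMEM218 and 3 SPA17 well above background. No list of ciliary genes was examined. The calls of DYNLRB2 and TMEM218 ended without normal 2 or normal 4, and that of SPA17 without any 1 of the normal dogs or affected 4. ANKRD35, an ankyrin repeat protein, completed the 12 genes, rising by 2.65 (limma, adjusted p = 0.0247). Its call ended without any 1 of the normal dogs or affected 4. With 1 of 8 normal arrays well above background, ANKRD35 was bright enough to test only through the dystrophic dogs. With normexp and loess ANKRD35 differed by 0.78 (limma, adjusted p = 0.156).

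**Figure D3:**
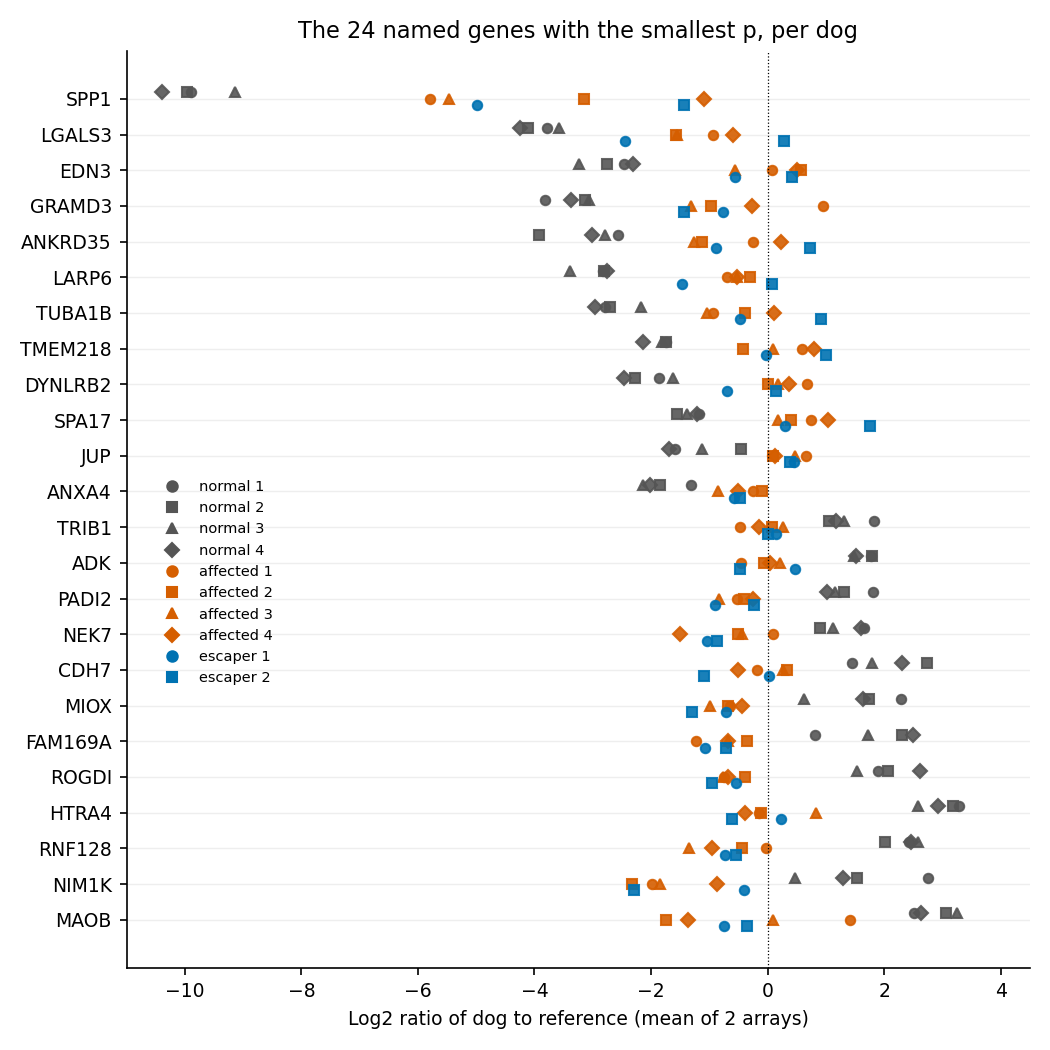
Log2 ratio to the reference (horizontal axis, mean of 2 arrays) in each of the 10 dogs for the 12 genes with the smallest p in each direction among called genes without overlap, sorted by difference. Grey symbols are normal, orange affected and blue escaper dogs. By the choice of genes, the 6 dystrophic dogs lie on the same side of all 4 normal dogs for each of the 24 genes.

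Several of the 12 genes that fell encode enzymes. ADK encodes adenosine kinase, which turns adenosine into AMP, and all 3 of its probes passed. On the brightest the normal dogs read 1.77, 1.79, 1.49 and 1.51, and the dystrophic dogs lay around the reference, from −0.46 (escaper 2) to 0.48 (escaper 1). The differences were −1.68, −1.29 and −1.80, with limma adjusted p of 0.012, 0.0227 and 0.0256. The call on the brightest probe ended without normal 2 or normal 4, with adjusted p up to 0.0605.

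MAOB encodes monoamine oxidase B, an enzyme of the outer mitochondrial membrane that oxidises amines. It read 2.51, 3.06, 3.26 and 2.64 in normal dogs and ran from −1.74 (affected 2) through −0.55 to 1.42 (affected 1) in dystrophic dogs. The groups did not overlap and differed by −3.32, with an interval from −4.48 to −2.15 (limma, adjusted p = 0.0246). On 3 of 12 dystrophic arrays MAOB was well above background. MAOB lost its call without any 1 of the normal dogs or affected 4, and with normexp and loess the difference was −1.20 (adjusted p = 0.0616).

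PADI2, which converts arginine in proteins to citrulline, fell by 1.85 on the log2 scale, from 1.32 ± 0.34 (n = 4) to −0.52 ± 0.29 (n = 6), with a limma adjusted p of 0.00946. On 1 of 12 dystrophic arrays PADI2 was well above background. MIOX, the oxygenase that opens the ring of inositol, read 2.29, 1.74, 0.62 and 1.63 in normal dogs and −1.29 to −0.43 in dystrophic dogs, a difference of −2.36 (limma, adjusted p = 0.0113), with 1 of 12 dystrophic arrays well above background. HTRA4, a secreted serine protease, read 3.29, 3.18, 2.59 and 2.93 in normal dogs and was well above background on 0 of 12 dystrophic arrays. It was at least 1.72-fold lower in dystrophic muscle. Its ratios to the reference passed (limma, adjusted p = 0.00246), but not with normexp and loess (adjusted p = 0.0829). PADI2, MIOX and HTRA4 were bright enough to test only through the normal dogs, so the size of their fall is loosely measured. With normexp and loess PADI2 differed by −0.43 and MIOX by −0.67, neither called (limma, adjusted p = 0.110 and 0.136). The calls of PADI2 and HTRA4 held whichever dog was left out, and that of MIOX ended without normal 2 or normal 4.

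Protein kinases and their relatives fell at 3 genes. NIM1K, a kinase related to AMP-activated kinase, fell by 3.13 on the log2 scale, from 1.52 ± 0.94 to −1.62 ± 0.80 (limma, adjusted p = 0.0235). NEK7, a kinase of cell division that also takes part in the inflammasome, fell by 2.03 on the log2 scale, from 1.33 ± 0.37 to −0.71 ± 0.55 (limma, adjusted p = 0.021), with 1 of 12 dystrophic arrays well above background. TRIB1, a pseudokinase that steers protein degradation, fell by 1.37 on the log2 scale, from 1.34 ± 0.34 to −0.02 ± 0.26 (limma, adjusted p = 0.0235). None of the 3 overlapped between groups, as their choice required, and NIM1K was well above background on 4 of 12 dystrophic arrays. NEK7 was bright enough to test only through the normal dogs, and with normexp and loess it differed by −0.43 (limma, adjusted p = 0.166). NIM1K lost its call without normal 1, normal 2 or normal 4, NEK7 without any 1 of the normal dogs, and TRIB1 without any 1 of the normal dogs or affected 4.

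CDH7, a cadherin of cell contacts, and FAM169A completed the 12 genes that fell, by 2.26 and 2.62 on the log2 scale (limma, adjusted p = 0.0209 and 0.0102). FAM169A was well above background on 1 of 12 dystrophic arrays and CDH7 on 6. FAM169A was thus bright enough to test only through the normal dogs. With normexp and loess FAM169A differed by −0.50 (limma, adjusted p = 0.136). CDH7 lost its call without normal 2, normal 3, normal 4 or affected 4, while FAM169A kept it whichever dog was left out.

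Of the 33 called genes followed through the alternatives, all kept their sign with normexp and loess, and 5 were still called, namely LARP6, ANXA4, JUP, ROGDI and ADK. Differences that shrank there by more than 1.5 times were those of EDN3 (0.51), DYNLRB2 (1.03), TMEM218 (1.21), SPA17 (0.84), SPP1 (4.02), GRAMD3 (0.57), ANKRD35 (0.78), CASQ2 (0.47), COL12A1 (0.94), ATG4B (0.14) and CXCL14 (1.999) among genes that rose. Among genes that fell they were those of RNF128 (−0.63), HTRA4 (−0.59), PADI2 (−0.43), FAM169A (−0.50), MIOX (−0.67), CDH7 (−0.94), NEK7 (−0.43), NIM1K (−1.53), TRIB1 (−0.61) and MAOB (−1.20). With affected 1 and escaper 2 both left out, all 24 of the strongest genes stayed called.

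Multiple probes of a gene gave the same direction. Of the 97 genes with any called probe, brightest or not, 17 had more than 1 tested probe. On all 17 every probe had the same sign, against 796 of 982 (81.1%) among all genes with more than 1 tested probe. On 5 of the 17 all probes were called.

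Probes without a symbol were 134 of the 237 called (56.5%) and 8699 of all 16008 tested (54.3%), a similar share. The unnamed probe A_11_P0000016302 had the smallest p among unnamed probes that rose and read −3.88, −3.44, −2.81 and −3.64 in normal dogs and −0.59 to 1.25 in dystrophic dogs, a difference of 3.57 (limma, adjusted p = 0.0047). A_11_P0000025577 read between −0.75 and −0.33 in normal dogs, with 0 of 8 arrays well above background, and between 1.24 (affected 2) and 4.19 (escaper 2) in dystrophic dogs (limma, adjusted p = 0.0117). All 6 dystrophic dogs thus exceeded the reference on that probe, while the normal ratios compare signals near background. Among unnamed probes that fell, A_11_P0000032936 differed by −1.46 (adjusted p = 0.0176) and A_11_P0000039617 by −2.31 (adjusted p = 0.0209). These probes were picked for their small p after their values were seen.

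The gene lists that follow group genes by pathway, and each list is described by the genes on it that were tested, beside the median over all 6215 tested genes, which was 0.03. Of all these genes 0.853% were called higher and 0.547% lower, and 24.3% had an unadjusted p under 0.05. Counts within a list are to be read beside these shares. Genes of energy supply lay lower in dystrophic muscle almost without exception, though none of them was called. All 32 tested genes of respiratory complex I, which feeds electrons from NADH into the respiratory chain, had a lower mean in dystrophic dogs, with a median of −1.02 and a range from −1.58 to −0.25. None passed limma's adjusted threshold, 22 had an unadjusted p under 0.05, and on 16 every dystrophic dog lay below every normal dog, against 6.74% of all genes. Likewise lower were all 15 genes of complexes II to IV with cytochrome c (median −0.99, 9 with an unadjusted p under 0.05) and all 7 of ATP synthase (median −1.15, 4 with an unadjusted p under 0.05).

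NDUFA2, a subunit of complex I, read 0.66, 0.90, 1.14 and 1.19 in normal dogs and −0.93 (escaper 2) to 0.31 (escaper 1) in dystrophic dogs, a difference of −1.04 (limma, adjusted p = 0.0697). COX5A, a subunit of complex IV, differed by −1.96 (adjusted p = 0.0594) and ATP5PF, a subunit of ATP synthase, by −1.15 (adjusted p = 0.0759). The mitochondrial ribosome, which makes the proteins encoded in mitochondrial DNA, was lower on 53 of 57 genes, with a median of −0.44 and 21 unadjusted p under 0.05. Its member with the smallest p, MRPL1, differed by −1.15 (adjusted p = 0.0655). For these 4 genes the dystrophic dogs lay below all normal dogs.

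Fuel use showed the same direction. All 19 tested genes of the TCA cycle and pyruvate entry were lower (median −1.31, 14 with an unadjusted p under 0.05), and 12 of them did not overlap between groups, against 6.74% of all genes. An unadjusted p under 0.05 was reached by 24.3% of all genes. DLAT, the acetyltransferase of the pyruvate dehydrogenase complex, lay at 1.32 ± 0.25 (n = 4) in normal dogs and from −1.67 to 0.79 in dystrophic dogs (difference −1.77, limma, adjusted p = 0.064). All 20 genes of fatty acid oxidation and ketone use were lower (median −0.72), with 5 unadjusted p under 0.05, near the 24.3% of all genes. Of glycolysis and glycogen 15 of 16 genes were lower (median −0.84, 6 with an unadjusted p under 0.05). Neither list held a call. ACAT1, which splits and joins acetoacetyl-CoA, differed by −1.25 (limma, adjusted p = 0.0986).

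Escaper 2 had the lowest mean in each of these 7 lists, and affected 1 the next lowest in 6, the exception being the mitochondrial ribosome, where affected 1 was the highest dystrophic dog. Mean log2 ratios over the complex I genes were 0.64, 0.58, 0.70 and 0.92 in normal dogs, −0.78 in affected 1 and −1.32 in escaper 2, while the other 4 dystrophic dogs ranged from −0.05 to 0.39. On this list every dystrophic dog was thus below every normal dog, but by very different amounts, as the plot of list means by dog shows. The groups overlapped on fatty acid oxidation, where affected 2 (0.50) and escaper 1 (0.14) lay within the normal range of −0.03 to 0.53. They also overlapped on glycolysis, where escaper 1 (0.30) lay above the lowest normal dog (0.20). Without affected 1 and escaper 2 the median difference was −0.55 for complex I, −0.78 for the TCA cycle, −0.26 for glycolysis and −0.15 for fatty acid oxidation. In that smaller comparison NDUFA2 (−0.75, limma, adjusted p = 0.0239), COX5A (−1.42, adjusted p = 0.0126) and DLAT (−1.32, adjusted p = 0.0364) passed. The medians of the 7 lists of energy supply stayed negative in all alternatives tried.

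**Figure D4:**
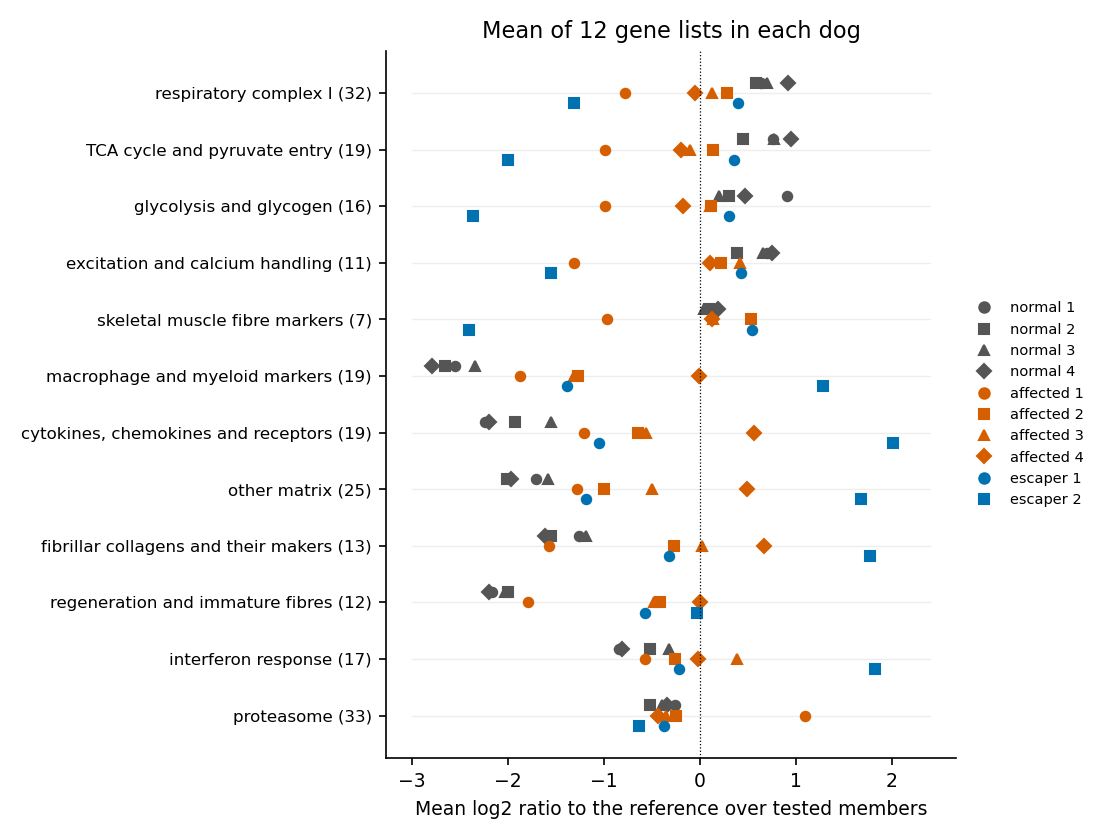
Mean log2 ratio to the reference (horizontal axis) over the tested members of 12 gene lists in each dog, with the number of tested genes in brackets, grey for normal, orange for affected and blue for escaper dogs. Escaper 2 and affected 1 lie lowest for energy and fibre lists, escaper 2 lies highest for the macrophage, cytokine, matrix and collagen lists, and affected 1 stands alone at 1.09 for the proteasome.

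Contractile genes gave no shared direction. Of 9 tested fast fibre genes 7 were lower (median −0.53, none called by limma, 1 with an unadjusted p under 0.05), and of 10 slow fibre genes 6 were lower (median −0.15, 2 with an unadjusted p under 0.05). The median of each list took the opposite sign without affected 1 and escaper 2, 0.20 for fast and 0.68 for slow fibre genes. MYBPC2, the myosin-binding protein C of fast fibres, ran from −4.83 (escaper 2) to 1.37 (affected 3) among dystrophic dogs, overlapping the normal range of 1.18 to 2.28 (difference −2.81, limma, adjusted p = 0.144). MYH7, the slow myosin heavy chain, differed by −0.85 (adjusted p = 0.465) and by 0.04 without those 2 dogs.

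CASQ2 was the contractile gene that passed. It encodes the calsequestrin of slow and cardiac muscle, which stores calcium in the sarcoplasmic reticulum. Normal dogs read −3.40, −3.93, −2.52 and −1.56 and dystrophic dogs −1.32 to −0.09, so that it rose by 2.09 (limma, adjusted p = 0.0436). In normal dogs CASQ2 was well above background on 4 of 8 arrays. CASQ2 lost its call without any of 8 single dogs, the exceptions being affected 1 and escaper 2. All 11 tested genes of excitation and calcium handling were lower (median −0.78, none called by limma, 3 with an unadjusted p under 0.05), and JPH1, which anchors the reticulum to the transverse tubules, overlapped between groups (difference −1.70, adjusted p = 0.16).

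The dystrophin complex itself did not move as a group. Of 14 tested genes 7 were higher and 7 lower, with a median of 0.10. DMD, the gene of dystrophin, read 0.31, 0.79, 0.61 and 0.08 in normal dogs and from −2.22 (affected 1) through 0.00 to 0.91 (affected 3) in dystrophic dogs. These ranges overlap, and the difference of −0.80, with an interval from −1.91 to 0.32, did not pass (limma, adjusted p = 0.346). Only 10 of 20 arrays had its probe well above background, and since the mutation is not in the labels it checks no label. DAG1, dystroglycan, differed by 0.22 on its brighter probe and −0.24 on the other, and neither passed (limma, adjusted p = 0.67 and 0.573).

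SNTB2, a syntrophin that binds dystrophin and its relatives, was the only member called. It lay at −1.59 ± 0.50 (n = 4) in normal dogs, of which normal 3 was highest at −0.87, and from −0.65 (affected 1) to 0.82 (escaper 2) in dystrophic dogs, a difference of 1.61 (limma, adjusted p = 0.0436). Its call ended without any 1 of the normal dogs, affected 2, affected 3 or affected 4. UTRN, the gene of utrophin, a protein related to dystrophin, exceeded background clearly on 0 of 20 arrays and went untested.

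Genes of regenerating and immature fibres were higher on 11 of 12 tested members, with a median of 1.19 (0.743 with normexp and loess). Of them 2 were called, against 0.853% of all genes, and 5 did not overlap, against 6.39%. ACTC1, the actin of heart and embryonic muscle, read −3.99, −4.09, −4.11 and −4.16 in normal dogs. In dystrophic dogs it was −3.33 in affected 1, −0.19 at the median and 1.57 in escaper 2. Normal dogs were almost equal, affected 1 was close to them, and the other 5 dystrophic dogs were far above. ACTC1 rose by 3.75, with an interval from 2.08 to 5.42 (limma, adjusted p = 0.0417), and by 4.02 without affected 1 and escaper 2 (adjusted p = 0.00152). Its call ended without any 1 of the normal dogs, affected 2, affected 3 or affected 4.

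H19, an imprinted long non-coding RNA of embryonic and regenerating muscle, rose by 1.01, from −2.69 ± 0.34 to −1.68 ± 0.25 (limma, adjusted p = 0.0461), with the reference spot saturated on all 20 arrays. The same 7 single dogs ended its call. Without a call but with large differences stood MYH8, the perinatal myosin heavy chain (3.26), CHRNA1, a subunit of the acetylcholine receptor (3.28), and TNNT2, the cardiac and embryonic troponin T (3.06). The mean over the 12 genes ran from −2.20 to −2.001 in normal dogs, was −1.79 in affected 1 and was at least −0.57 in the other 5 dystrophic dogs.

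Satellite cell markers, which label the muscle stem cells, were higher on 6 of 7 tested genes (median 1.09, or 0.33 with normexp and loess, none called by limma, 4 with an unadjusted p under 0.05). CXCR4, a chemokine receptor that these cells share with blood cells, read −3.17, −1.55, −2.60 and −2.77 in normal dogs and −1.05 to 2.25 in dystrophic dogs (difference 2.55, adjusted p = 0.0652). Cell cycle genes did not separate the groups, with 8 of 11 higher, a median of 0.36 and 3 unadjusted p under 0.05, against 24.3% of all genes. MCM7, a helicase subunit of DNA replication, differed by 0.61 and overlapped (limma, adjusted p = 0.164). In the Notch pathway 5 of 7 genes were higher (median 0.20, 1 with an unadjusted p under 0.05), and PSENEN, a subunit of the gamma-secretase that activates Notch, differed by −0.39 (adjusted p = 0.202). JAG1, a Notch ligand, exceeded background clearly on 1 of 20 arrays and went untested.

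Collagens and their makers were higher on all 13 tested genes, with a median of 1.04. LARP6 was the 1 gene that passed, against 0.853% of all genes called higher. An unadjusted p under 0.05 was reached by 7 of the 13, against 24.3% of all genes. COL3A1 stood 3.80 and COL1A2 2.41 higher, neither called. COL1A1, the other chain of type I collagen, was well above background on 0 of 8 normal and 4 of 12 dystrophic arrays, was at least 1.26-fold higher and did not pass (limma, adjusted p = 0.412). The mean over the 13 genes was −1.62 to −1.19 in normal dogs, −1.57 in affected 1, −0.32 to 0.67 in the next 4 dogs and 1.78 in escaper 2, so affected 1 lay within the normal range.

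Other matrix genes were higher on 23 of 25 (median 1.45). Of them 2 were called, against 0.853% of all genes called higher, and 16 had an unadjusted p under 0.05, against 24.3%. On no normal array were 4 of the 25 well above background, so these were tested only through the dystrophic dogs. Beside SPP1 the call fell on COL12A1, a collagen that decorates collagen fibrils, whose probe was well above background on 0 of 8 normal arrays. COL12A1 was at least 1.88-fold higher in dystrophic muscle. Its ratios were highest in escaper 2 at 2.82 and passed (limma, adjusted p = 0.0496), but not with normexp and loess (adjusted p = 0.23). Its call ended without any 1 of the normal dogs, affected 1, affected 3 or affected 4, and with each array centred on its median. In TGF-beta and myostatin signalling 11 of 13 genes were higher (median 0.52, none called by limma, 4 with an unadjusted p under 0.05). TGFBR3, the betaglycan coreceptor, was at least 1.39-fold higher (adjusted p = 0.0574). LTBP4, a matrix protein that holds latent TGF-beta and modifies the course of muscular dystrophy, differed by 0.29 and −0.07 on its 2 probes (limma, adjusted p = 0.431 and 0.867). MSTN, myostatin, the secreted brake on muscle growth, exceeded background clearly on 2 of 20 arrays, both of normal dogs, and went untested.

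**Figure D5:**
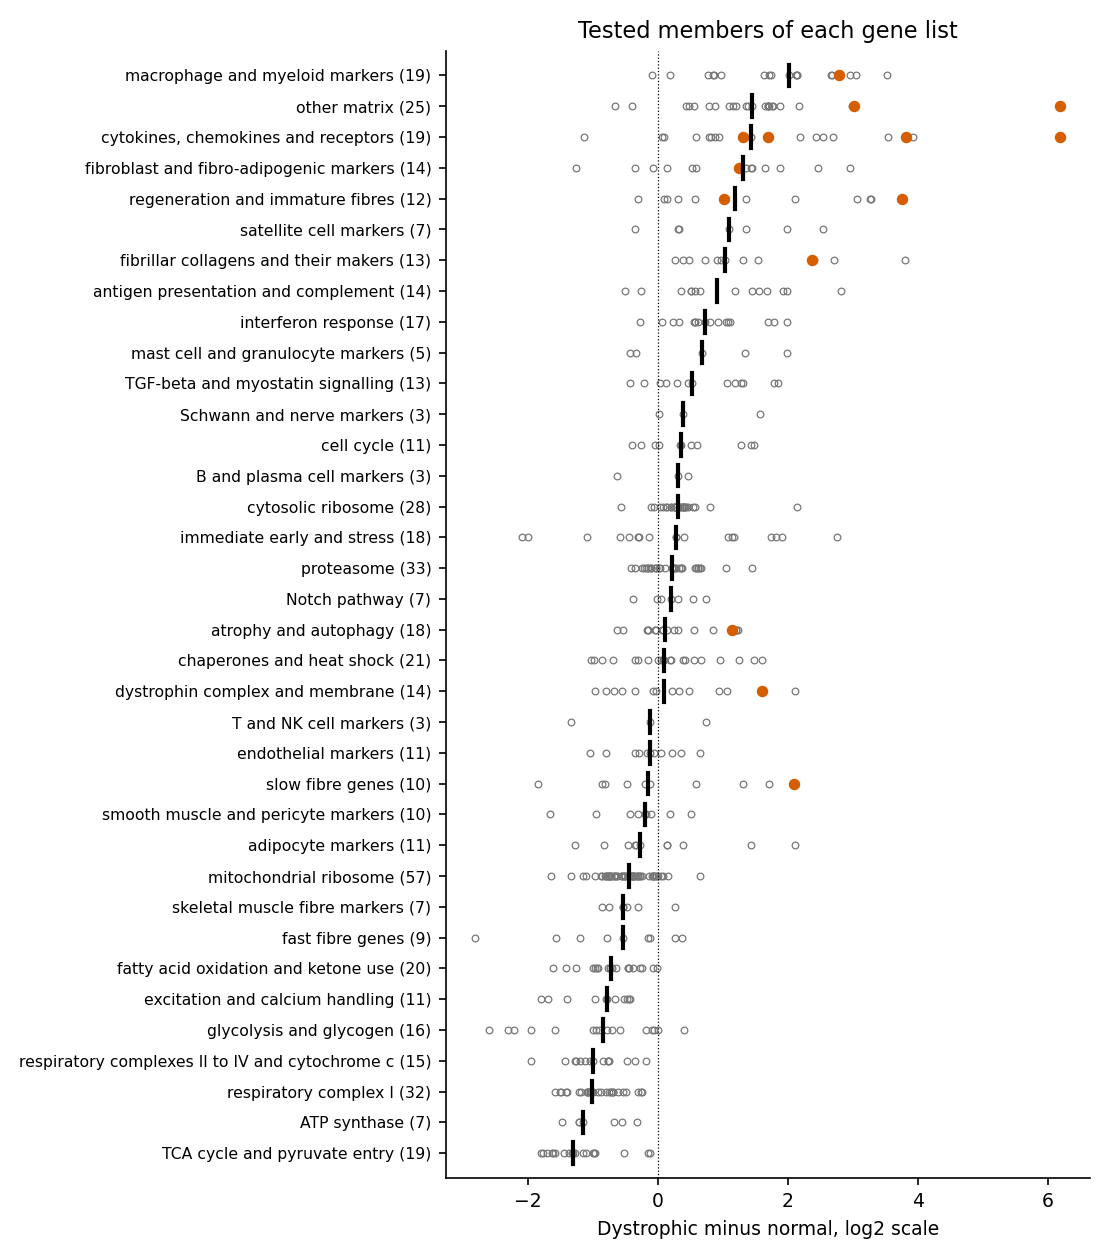
Difference between dystrophic and normal dogs on the log2 scale (horizontal axis) for each tested member of the gene lists with at least 3 tested genes, which are named with their number. Filled orange points are called genes, open points are not called, and black bars are medians, which run from −1.31 for the TCA cycle to 2.01 for macrophage markers.

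Of 19 tested macrophage markers, 18 were higher in dystrophic dogs, with a median of 2.01. On 12 of the 19 all dystrophic dogs lay above all normal dogs, against 6.39% of all genes, and 14 had an unadjusted p under 0.05, against 24.3% of all genes. LGALS3 was the 1 member called, against 0.853% of all genes called higher. Of 26 macrophage markers with a probe, 7 were too dim to test. Of the 19 tested, 7 were well above background on all 20 arrays. On no normal array were 3 of them well above background, so these were tested only through the dystrophic dogs. CD86, a costimulatory molecule, stood 3.52 higher, CTSS, the lysosomal protease cathepsin S, 3.05, and GPNMB, a glycoprotein of phagocytes, 2.96, none of them called. CD68, a marker of macrophage lysosomes, differed by only 0.19 and overlapped (limma, adjusted p = 0.595), and TYROBP, a signalling adaptor, by −0.09. The list mean was −2.80 to −2.35 in normal dogs, −1.87 in affected 1, −1.39 to −0.01 in 4 other dystrophic dogs and 1.29 in escaper 2. The median difference was 1.81 without affected 1 and escaper 2, and 0.766 with normexp and loess.

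Cytokines, chemokines and their receptors were higher on 18 of 19 tested genes (median 1.44, or 0.777 with normexp and loess), and 4 rose, against 0.853% of all genes, namely SPP1, CXCL14, IL17RA and TNFRSF1A, the last, a receptor of tumour necrosis factor, by 1.31 (limma, adjusted p = 0.0316). CXCL14, a chemokine of epithelia and stroma, read −5.14, −4.79, −3.28 and −4.71 in normal dogs and −2.68 (affected 2) to 1.05 (escaper 2) in dystrophic dogs. It rose by 3.82, with an interval from 2.41 to 5.23 (limma, adjusted p = 0.0259), and was well above background on 4 of 8 normal arrays. IL17RA, the receptor chain of interleukin 17, rose on both of its probes, by 1.70 and 1.95 (limma, adjusted p = 0.0259 and 0.0106). On the brighter probe it read −1.55, −1.51, −1.66 and −0.81 in normal and −0.03 to 1.12 in dystrophic dogs. Both genes lost their call without any 1 of the normal dogs or affected 4. Of the 19 genes, 4 were well above background on no normal array and were tested only through the dystrophic dogs.

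Interferon response genes were higher on 16 of 17 (median 0.73, or 0.457 with normexp and loess, none called by limma). Of them 5 had an unadjusted p under 0.05, against 24.3% of all genes. STAT2, a transcription factor of that response, was at least 1.28-fold higher (adjusted p = 0.0618), with normal dogs not well above background on any array. Antigen presentation and complement genes were higher on 12 of 14 (median 0.92, or 0.589 with normexp and loess, none called by limma, 7 with an unadjusted p under 0.05), and C1QA, a chain of complement C1q, differed by 1.92 without overlap (adjusted p = 0.0937). Immediate early and stress genes split, with 10 of 18 higher (none called, 6 with an unadjusted p under 0.05), and NR4A2, a nuclear receptor of that class, read 1.38 to 2.68 in normal and −1.78 to 2.08 in dystrophic dogs (difference −2.09, limma, adjusted p = 0.111).

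Fibroblast and fibro-adipogenic markers were higher on 11 of 14 (median 1.31, or 0.70 with normexp and loess). Of them 7 had an unadjusted p under 0.05, against 24.3% of all genes, and 1 was called, against 0.853% called higher. GSN, the actin-severing protein gelsolin, rose by 1.25, from −0.83 ± 0.32 to 0.42 ± 0.45 (limma, adjusted p = 0.0482), with the reference spot saturated on 19 of 20 arrays and the dog's own on 10. GSN lost its call without any of 8 single dogs, the exceptions again being affected 1 and escaper 2. Stromal markers did not all go up, and MEOX1, a transcription factor of fibroblasts, stood 1.26 lower without a call.

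Markers of other cells gave smaller medians and no call by limma. The 11 endothelial genes had a median of −0.12 (1 with an unadjusted p under 0.05), and KDR, the receptor of vascular endothelial growth factor, differed by −1.05 (adjusted p = 0.145). In smooth muscle and pericytes the median was −0.19 over 10 genes (0 with an unadjusted p under 0.05), and ACTG2, enteric smooth muscle actin, differed by −0.95 (adjusted p = 0.247). Adipocyte markers had a median of −0.28 over 11 genes (1 with an unadjusted p under 0.05), ADIPOQ, adiponectin, differed by −0.28 (adjusted p = 0.76), and FASN, fatty acid synthase, was at least 1.20-fold higher (adjusted p = 0.0594). Mast cell and granulocyte markers had a median of 0.67 over 5 genes (2 with an unadjusted p under 0.05), and S100A8, a calcium-binding protein of neutrophils and monocytes, differed by 1.35 without overlap (adjusted p = 0.0955).

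Lymphocyte and nerve markers were measured on few genes. The 3 T and NK cell markers had a median of −0.12 (2 with an unadjusted p under 0.05), and NKG7, a granule protein, differed by −1.33 with overlap (limma, adjusted p = 0.152), its spot saturated on 6 arrays in the dog's channel and 6 in the reference channel. The 3 B and plasma cell markers had a median of 0.31 (0 with an unadjusted p under 0.05), and XBP1, a factor of secretory cells, differed by 0.47 (adjusted p = 0.587). The 3 Schwann and nerve markers had a median of 0.39 (1 with an unadjusted p under 0.05), and PMP22, a myelin protein, differed by 1.57 with overlap (adjusted p = 0.19). Skeletal muscle fibre markers had a median of −0.53 over 7 genes (0 with an unadjusted p under 0.05). Their mean was 0.04 to 0.18 in normal dogs, −2.41 in escaper 2, −0.97 in affected 1 and 0.12 to 0.54 in the other 4 dystrophic dogs. Without affected 1 and escaper 2 the fibre marker median was 0.19. Escaper 2 and affected 1, low for most energy lists, were thus low for fibre markers too, and the part of fibre content in those lists was not tested. Medians of small size turned sign in some alternatives, in 5 for adipocyte markers and in 4 each for T and NK cell, B and plasma cell and fibre markers. With normexp and loess, medians also shrank by more than 1.5 times for other matrix (0.965), fast fibre (−0.19), excitation and calcium (−0.51), cell cycle (0.136), Notch (0.0715) and mast cell and granulocyte genes (0.40). The same held for the dystrophin complex (0.0345), immediate early and stress (0.114), chaperone (0.0626), endothelial (−0.07), smooth muscle and pericyte (−0.0986) and T and NK cell genes (−0.00742). The adipocyte median turned sign there (0.0534).

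Protein turnover showed small medians, and those of proteasome, chaperone and atrophy genes turned sign in 2 alternatives each. Cytosolic ribosome genes were higher on 25 of 28 (median 0.31, none called by limma). Of them 7 had an unadjusted p under 0.05, near the 24.3% of all genes. RPL3, a core protein of the large subunit, was 2.14 higher (limma, adjusted p = 0.073). Proteasome genes had a median of 0.21 over 33 genes (none called, 1 with an unadjusted p under 0.05). Affected 1, at a mean of 1.09, stood above the other 9 dogs, which lay between −0.64 and −0.25, and without affected 1 and escaper 2 the median was 0.01. PSMD9, a chaperone of proteasome assembly, differed by 1.44 (limma, adjusted p = 0.128). Chaperones and heat shock genes had a median of 0.10 (none called, 4 of 21 with an unadjusted p under 0.05), with PDIA6, a disulphide isomerase of the endoplasmic reticulum, 1.48 higher (adjusted p = 0.101). Atrophy and autophagy genes had a median of 0.11 over 18 genes, with 1 called, against 0.853% of all genes called higher. ATG4B, the protease that processes LC3 for autophagosomes, was at least 1.10-fold higher. Its ratios passed (limma, adjusted p = 0.0436), but not with normexp and loess (adjusted p = 0.628). Its call ended without any 1 of the normal dogs, affected 2, affected 3 or affected 4.

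The joined group holds both clinical courses, and the difference between them was tested in the same dogs. Between 2 escapers and 4 affected dogs limma called 0 of 16008 probes (0%), and 5.05% had an unadjusted p under 0.05. Leaving out escaper 1, so that escaper 2 stood alone and was assumed to vary like the other dogs, gave 1516 calls, and leaving out escaper 2 gave 0. The interval of this difference was narrow for ROGDI, from −0.81 to 0.60, and wide for SPP1, from −2.22 to 3.56. Set against the same normal dogs separately, affected dogs differed on 31 probes (0.194%) or 14 genes (0.225%), and escapers on 4 probes (0.025%) or 3 genes (0.0483%). ROGDI differed by −2.67 in affected and −2.78 in escaper dogs, and SPP1 stood 5.97 and 6.64 higher. LARP6 stood 2.43 and 2.24 higher, and the median over complex I genes was −0.84 in affected and −1.24 in escaper dogs.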

How the data were processed

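Muscle RNA of 10 dogs was measured on 20 canine arrays. Per the file headers, spots were quantified by Feature Extraction 9.5.3.1 of Agilent. Values in the deposited table are log2 ratios, and they equalled the log2 of dog over reference processed signals in the scanner files (r = 1), with swapped dyes already turned and no centring (column medians from −0.16 to 0.25). The intensities deposited in the scanner files are mean and background signals, and the processed signals had background subtracted, spatial trends removed and dyes normalised (linear and LOWESS), again per the file headers. The table, not the scanner intensities, gave the reported values, because the comparison was defined on it.

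Control spots and outlier-flagged spots were left out, and saturated spots were kept. Testing required a value in every dog and, for 2 or more dogs, both arrays with the dog's signal well above background. The 2 arrays of a dog were averaged. limma 3.58.1 in R 4.3.3 (lmFit, eBayes) compared 6 dystrophic with 4 normal dogs. A fit of 3 groups gave the other comparisons. P-values were adjusted by Benjamini-Hochberg over 16008 probes, threshold 0.05, and the fit was tested on simulated data. P-values set a group difference against the spread between these dogs.

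Symbols came from the array files, updated by a RefSeq table for UU_Cfam_GSD_1.0, from which names and no positions were taken. Of 42034 probes 12293 received a symbol and 29741 stayed unnamed. Different probes of a gene were represented by the brightest. Named genes are up to 12 called genes without overlap in each direction by p, up to 3 called members of each list or else the one of lowest p, and a few genes known from muscular dystrophy. One gene that the rule named is not reported here. A few others are named as examples chosen after their values were seen. The members and lists were chosen with earlier results of these data known. The number of dogs, 6 dystrophic and 4 normal, limits the precision.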

Additional observations from a re-analysis of the deposited data

Results flagged for a closer look

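In 132 groups of 4 or 6 dogs examined over the named genes, 2 held a dog far from the rest by Dixon's criterion, which chance meets in about 1 of 20 groups. For LARP6, normal 3 read −3.39, while the other normal dogs lay between −2.82 and −2.75. For MYH7, normal 1 read −0.049, while the other normal dogs lay between 1.05 and 1.15.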

How the results depend on the processing

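The count of 237 probes between dystrophic and normal dogs became 17 with normexp and loess, 81 with no filter on dim probes, 56 with probes well above background on all 20 arrays, 118 with trend and robust variance, 110 with the dog in Cy5 only and 132 with the dog in Cy3 only. It became 1156 with slide as a random block (consensus correlation −0.15), 1687 with all 20 arrays and the dog as a random block, 2157 with a weight for each dog (0.176 for escaper 2 and 0.201 for affected 1), 1676 without affected 1 and escaper 2 together and 902 without affected 1, affected 4 and escaper 2 together, the last pair of settings chosen after seeing the data. Leaving out 1 dog gave 13 to 640. The causes were not tested. Centring each array (236) and weighting affected and escaper dogs equally (247) stayed within 1.5 times. Between escaper and affected dogs the count stayed at 0 except without escaper 1, where it was 1516 (range 0 to 1516). Directions turned for MYH7 without affected 1 and escaper 2 (0.0363) and without affected 4 as well (0.0329), for XBP1 with a weight for each dog (−0.10) and in the same smaller sets of dogs (−0.21 and −0.36), for DAG1 without normal 2 (−0.0555, range 0.400 at the highest when 1 dog is left out), and for ADIPOQ with normexp and loess (0.0534), without normal 1 (0.07) and without normal 3 (0.0952, range from −0.693 when 1 dog is left out). Dystrophic and normal dogs are different animals and the labels pair none of them, so the groups were compared unpaired.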
